A study of Homo sapiens with 10 samples.

Results

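The genes described here encode the proteasome. They are the protein-coding genes whose symbol is PSMA, PSMB, PSMC, PSMD, PSME, PSMF or PSMG followed by a number, matched by Ensembl identifier to the deposited gene models. Of 26346 genes listed in each library, 47 were members, and 44 of these were among the 13630 genes that entered the test, for which a gene had to average 0.5 RPKM or more (reads per kilobase of transcript and per 1000000 reads of the library). PSMA8, PSMB9 and PSMB11 were too low to be tested, and PSMB3 was not analysed here. The study used EndoC-βH1, a human insulin-producing beta cell line, and asked what loss of the splicing factor SRp55 does to its RNA. One group received a control siRNA (siCTL) and the other an siRNA against SRp55 (siSR#2), with 5 independent preparations in each. The title of every library also holds the word "exposed", and to what is not given in the titles. All 10 libraries come from this single cell line, time after transfection is not given in the labels, and polyadenylated RNA was sequenced. The p-values measure the spread between these preparations and do not pair libraries of equal replicate number, except where a replicate block is named.

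The proteasome is the barrel-shaped protease that degrades ubiquitin-tagged proteins. Its 20S core is built of alpha rings that gate the entrance and beta rings that hold the catalytic sites, and the 19S particle on its ends recognises, unfolds and feeds substrates through a ring of ATPases (the base) and a deubiquitinating lid. Interferon induces alternative catalytic subunits, which form the immunoproteasome, and an alternative cap of PSME1 and PSME2. These favour peptides for presentation on class I molecules and are of interest in beta cells because islets are exposed to cytokines in type 1 diabetes. When proteasome activity falls, the transcription factor NRF1 (gene NFE2L1) raises the subunit genes together.

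Interferon acts on promoters through a response element, and its letters are shown for the immunoproteasome genes that hold them. Promoters were taken from RefSeq on GRCh38.p14, from 250 bases before to 50 bases after each annotated start, and were found for 41 of the 47 members (50 promoters, since some genes have several starts). PSMA7, PSMB1, PSMB6, PSMB7, PSMD4 and PSMG3 had no promoter in the table. The letters GAAA, then any 2 bases, then GAAA, the core of the interferon-stimulated response element, were searched on both strands. They were present in 3.57% of all 35114 promoters, and in 7 of the 50 member promoters. The 7 belong to 4 of the 5 immunoproteasome genes (PSMB8, PSMB10, PSME1 and PSME2, not PSMB9) and to PSMA4, PSMB4 and PSMG4. Each window below runs 5′ to 3′ on the strand of its gene, with the match in capitals. They lie at chr6:32844032-32844061 (minus strand) for PSMB8, chr16:67936852-67936881 (minus) for PSMB10, chr14:24136189-24136218 (plus) for PSME1 and chr14:24146619-24146648 (minus) for PSME2.
PSMB8: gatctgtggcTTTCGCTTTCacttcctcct
PSMB10: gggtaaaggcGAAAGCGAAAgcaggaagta
PSME1: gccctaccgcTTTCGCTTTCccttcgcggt
PSME2: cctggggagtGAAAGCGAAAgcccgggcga

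A second set is shown for the genes that passed a threshold in the comparison of siRNAs. The letters TGACNNNGC, the core of the antioxidant response element to which NRF1 and small MAF proteins bind, were also searched on both strands. They were present in 13.3% of all promoters and in 14 of the 50 member promoters. Counted by gene, 14 of the 41 members with a promoter held them, and 4 of the 7 that passed the threshold on RPM. The windows lie at chr15:78540650-78540679 (plus strand) for PSMA4, chr2:231056887-231056916 (plus) for PSMD1, chr17:67366723-67366752 (minus) for PSMD12 and chr21:39183615-39183644 (minus) for PSMG1. PSMD11, PSMC2 and PSMC6 also passed the threshold and held no such letters in this window. A match describes the letters and does not show that a factor binds.
PSMA4: gtgggcacgaTGACTCTGCaccgcctcctc
PSMD1: ggcggcctgaggaggcgacTGACTGAGCag
PSMD12: agacaaaaccTGACGCTGCaggctggagtg
PSMG1: gcccagggcaTGACAGCGCgggcgggcggt

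Each gene was measured in 2 ways. Gene RPKM is the sum of the deposited RPKM of its transcripts and allows genes to be compared per length. RPM is the sum of the estimated reads of its transcripts per 1000000 assigned reads in the library, which does not divide by transcript length. It compares a gene, or a sum over the same genes, between groups. The main test of the siRNAs was set on gene RPKM, and the test on RPM is an alternative to it. Log2 fold changes are SRp55 siRNA over control siRNA after subtracting the median of all tested genes, which was 0.11 on RPKM and -0.01 on RPM. The test itself was of the difference before that subtraction. Libraries held about 61900000 to 189800000 assigned reads, or 74.2% to 96.5% of the total on which the deposited RPKM is based. The target SRSF6, which encodes SRp55, measured 99.5, 99.5, 92.4, 99.7 and 100.0 RPKM in control replicates 1 to 5 and 23.8, 23.4, 25.3, 31.1 and 21.0 RPKM in SRp55 siRNA replicates 1 to 5. It fell by 2.08 on the log2 scale (SE 0.11, adjusted p = 2.0e-05), with no overlap between groups.

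Some libraries stood apart in the proteasome genes. Control replicate 4 was the highest control library in RPKM for 36 of the 44 tested members (81.8%, against 47.1% of all tested genes). It was the highest in RPM for 26 members (59.1%, against 20.8%). SRp55 siRNA replicate 5 was the lowest library of its group in RPKM for 33 members (75%, against 49.8%), and replicate 1 was the highest for 26 (59.1%, against 40.3%). The beta cell products CHGA and INS were abundant in both groups, at 10254 ± 2227 and 12149.7 ± 3634 RPKM for CHGA and at 6597 ± 3464 and 9520.4 ± 1414 RPKM for INS (SD, n = 5 each). Of 12 beta cell markers SLC30A8 rose and UCN3 fell on both quantities, PDX1, IAPP and NKX2-2 fell on RPM alone, and the other 7 did not pass. Over all tested genes 5.02% passed on RPKM and 17.2% on RPM. SST, the hormone of delta cells, varied between libraries, at 53.2 to 240.3 RPKM in controls and 41.6 to 189 RPKM after SRp55 siRNA. The part of these differences in the values of the proteasome genes was not tested. The leukocyte marker PTPRC, the lymphocyte markers CD3E, CD3D and MS4A1 and the antigen-presenting cell marker HLA-DRA were at or near 0. Of 10 immune markers, 3 (CD14, CD68 and CD74) were high enough to test. The summed level of the 10 was 55.2 to 75.3 RPKM in controls and 54.2 to 99.8 RPKM after SRp55 siRNA, and none of the 3 passed the test. In bulk RNA, fewer cells of a type and less RNA per cell cannot be told apart.

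EndoC-βH1 cells expressed nearly the whole constitutive proteasome at high level. The median of the 44 tested members stood at 63.0 RPKM over the 10 libraries, against 12.7 RPKM for the median tested gene, and 41 members exceeded 10 RPKM. Median levels per role, in RPKM, were 108 for the alpha ring, 138 for the structural beta subunits, 108 for the constitutive catalytic subunits, 65.5 for the base ATPases, 48.8 for the lid and 18.7 for the assembly chaperones. PSMA8, the testis alpha subunit, and PSMB11, the catalytic subunit of the thymus, averaged 0.00133 RPKM each. All members together took 0.449% ± 0.0337 (SD, n = 5) of assigned reads in controls and 0.469% ± 0.0254 (n = 5) after SRp55 siRNA. These group ranges overlapped.

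With all 10 libraries and both directions together, proteasome genes were called in no larger a share than all tested genes. On gene RPKM, 0 of the 44 passed an adjusted p under 0.05 in limma, where 5.02% of all tested genes passed (513 or 3.76% higher, 171 or 1.25% lower). An unadjusted p under 0.05 was found for 5 members, against 21.9% of all genes. The median member stood at 0.06 on the log2 scale relative to the median gene, within a range of -0.49 to 0.51. On RPM 7 of the 44 passed (15.9%), close to the background of 17.2% of all tested genes. The number called in both directions together is therefore not particular to the proteasome. PSMG1 rose (1 of 44 or 2.27%, against 7.30% of all genes called higher). PSMD11, PSMC2, PSMD12, PSMA4, PSMC6 and PSMD1 fell (6 of 44 or 13.6%, against 9.87% called lower). An unadjusted p under 0.05 was found for 13 members, against 31.9% of all genes. The median member stood at 0.11 on this scale, within a range of -0.40 to 0.46. The standard error was smaller on RPM than on RPKM for 43 of 44 members, with a median of 0.103 against 0.195, and on RPM the 95% interval of all 44 lay within ±1 on the log2 scale. It lay within ±0.58 for 31 members on RPM and 23 on RPKM. RPKM intervals reached -1.20 (PSMB10) and 1.02 (PSMA1), so larger changes of some members are not excluded. Rescaling the RPKM by median-of-ratios factors turned the split of all called genes to 412 higher (3.02%) and 507 lower (3.72%), and then PSMG1 (adjusted p = 0.03, higher) and PSMD11 (adjusted p = 0.018, lower) passed.

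**Figure D1:**
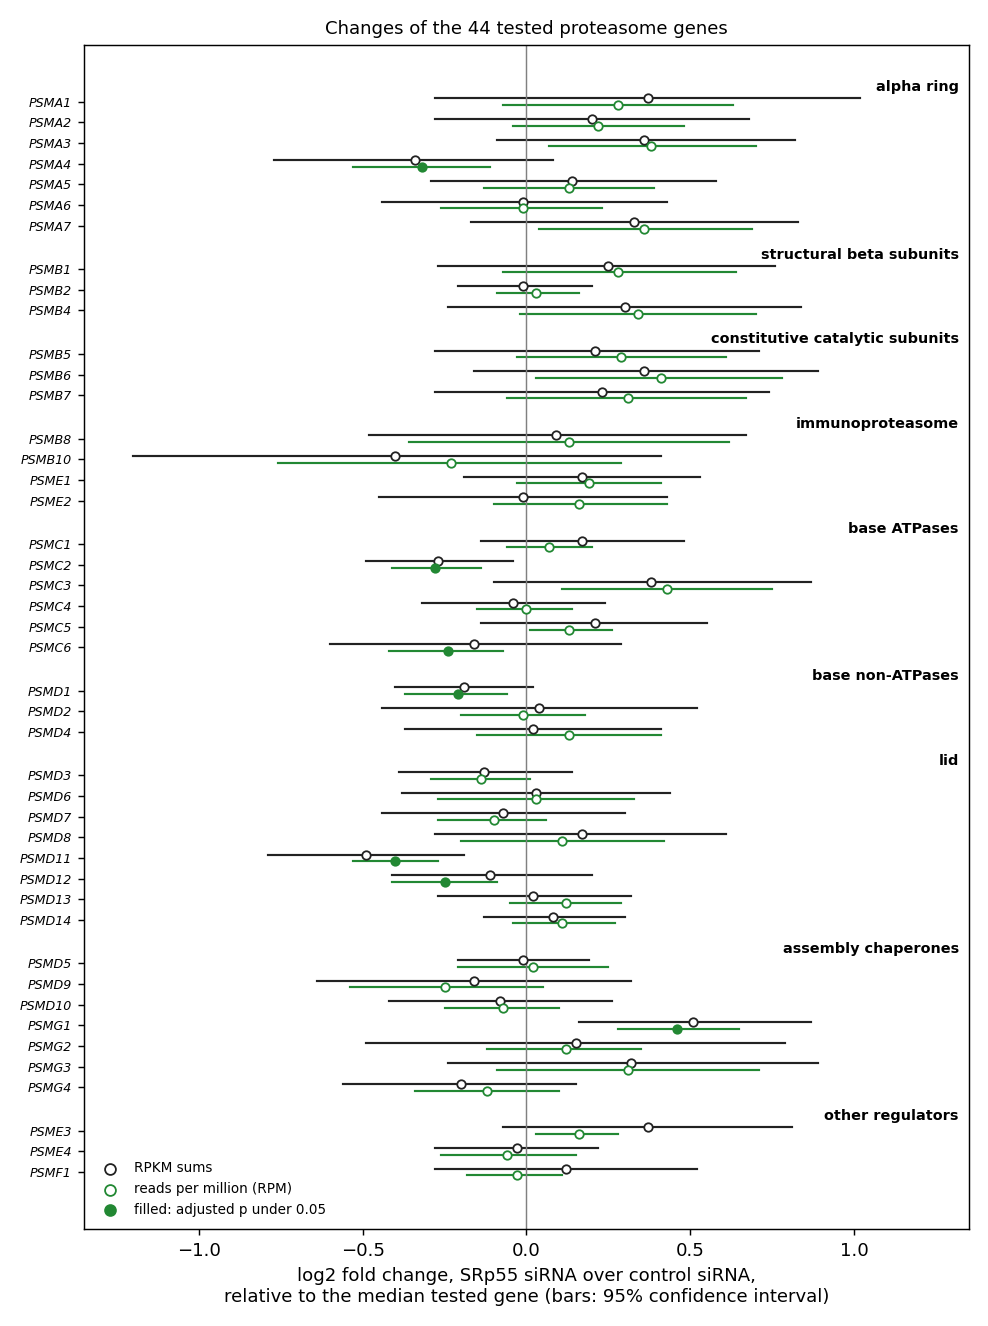
Log2 fold change (SRp55 siRNA over control siRNA, relative to the median tested gene) with its 95% confidence interval for the 44 tested proteasome genes by role, on gene RPKM (black) and on RPM (green), filled where the adjusted p was under 0.05. PSMG1 stands highest at 0.46 on RPM and PSMD11 lowest at -0.40, while no RPKM value is filled.

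In the 20S core most genes stood above the median gene without passing the test. On RPM, 11 of 13 tested core genes had a value above the median gene, the median was 0.28, and 1 passed, in the lower direction. This one was PSMA4, an alpha ring subunit (chr15:78832747-78841604 on GRCh37, plus strand). It measured 149, 149.9, 152, 148 and 152 RPM in control replicates 1 to 5 and 147, 115, 115, 128 and 96.0 after SRp55 siRNA. The controls were tight, SRp55 siRNA replicate 1 lay just below them, and the other 4 treated libraries were clearly lower. PSMA4 fell by 0.32 on the log2 scale (SE 0.10, adjusted p = 0.032). Its RPKM went from 116 ± 14.8 to 101 ± 26.7 (log2 -0.34, adjusted p = 0.52) with overlap. The call on RPM held in 4 of 10 fits with a library left out, where the adjusted p ran from 0.0055 to 0.071.

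PSMA1, another alpha subunit, had one of the highest RPKM differences but a wide spread. Its levels were 269, 193, 99.2, 219 and 97.6 RPKM in controls and 288, 190.0, 210.0, 279.8 and 181 RPKM after SRp55 siRNA. Control replicates 3 and 5 were low, and the other controls lay within the treated range. The difference of 0.37 on the log2 scale (SE 0.29, adjusted p = 0.38) did not pass, nor did that of 0.28 on RPM (adjusted p = 0.28). PSMA1 shares 6245 bases of the same strand with COPB1, so some of its reads may be ambiguous.

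More core genes were called when control replicate 4 was left out, and PSMA4 stayed lower. That library was the highest control in RPM for 10 of the 13 core genes (76.9%, against 20.8% of all tested genes). Leaving out the highest control raises such differences by construction. Without control replicate 4, PSMA7 and PSMA3 of the alpha ring, PSMB4 of the beta ring and the catalytic PSMB6 and PSMB7 passed as higher on RPM. Their log2 values were 0.52, 0.48, 0.48, 0.57 and 0.47, with adjusted p of 0.0046, 0.038, 0.03, 0.0099 and 0.024. With all 10 libraries they were 0.36, 0.38, 0.34, 0.41 and 0.31, and none passed. PSMA3 also passed without SRp55 siRNA replicate 5. Without control replicate 4, 7 members were called higher (8.47% of all genes) and 5 lower (10.8% of all genes). On RPKM PSMA7 (adjusted p = 0.043), PSMB6 (0.047) and PSMG1 (0.033) passed without that library, where 6.83% of all genes were called higher. PSMA7 measured 208, 159, 152, 285 and 161 RPM in controls and 245, 254, 234, 244 and 220.1 after SRp55 siRNA. The treated libraries were alike, and control replicate 4 exceeded all of them while the other 4 controls lay below.

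Of the 17 tested members in the 19S particle, 5 fell on RPM, where 9.87% of all genes were called lower. The particle was not tested against other genes. The lid component SEM1 and the ubiquitin receptor ADRM1 lie outside the symbol rule and are not counted here. The other 12 did not pass, and the median was -0.00 on RPM and 0.02 on RPKM. PSMD11 (chr17:30771279-30810336 on GRCh37, plus strand) encodes the lid subunit Rpn6, which clamps the particle to the core. It measured 121, 136, 129, 124 and 125 RPM in controls and 92.2, 96.8, 96.9, 98.9 and 90.9 after SRp55 siRNA. Every treated library was below every control. PSMD11 fell by 0.40 on the log2 scale (SE 0.06, 95% interval -0.53 to -0.27, adjusted p = 7.8e-04), or 24.3%, and passed in 10 of 10 fits with a library left out. On RPKM it went from 58.2 ± 8.67 to 44.5 ± 6.51 (SD, n = 5 each), a log2 value of -0.49 that did not pass (adjusted p = 0.14), with overlap between groups although each treated library was below the control of the same number. Groups without overlap, on RPM, were found for 2 members in the higher direction (5.60% of all genes) and 4 in the lower (8.21% of all genes).

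PSMC2 (chr7:102984701-103009842, plus strand) encodes Rpt1, an ATPase of the base. It measured 143, 151, 145, 135 and 156 RPM in controls and 112, 124, 121, 124 and 115 after SRp55 siRNA. The groups did not overlap. PSMC2 fell by 0.28 (SE 0.06, adjusted p = 0.0085), or 17.5%, and passed in 10 of 10 fits with a library left out. Its RPKM went from 65.5 ± 2.00 to 58.9 ± 6.47 (log2 -0.27, adjusted p = 0.41). PSMC2 overlaps DNAJC2 by 620 bases and SLC26A5 by 16666 bases on the other strand, and use of strand in counting is not given in the sources used here. SLC26A5 itself was at 0.00467 RPKM and DNAJC2 at 12.2 RPKM.

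The other 3 called 19S genes were near the threshold. PSMD12, which encodes the lid scaffold Rpn5, measured 77.3, 81.6, 78.1, 66.8 and 77.9 RPM in controls and 57.9, 65.8, 64.7, 68.2 and 60.7 after SRp55 siRNA. Control replicate 4 was the one control inside the treated range. PSMD12 fell by 0.25 (SE 0.07, adjusted p = 0.03), and passed in 3 of 10 fits with a library left out. Its RPKM was 26.2 ± 3.89 and 26.3 ± 4.5, a log2 value of -0.11 (adjusted p = 0.99).

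PSMC6, the ATPase Rpt4, measured 92.4, 95, 96.6, 91.7 and 91.2 RPM in controls and 69.9, 81.2, 83.9, 88.9 and 68.3 after SRp55 siRNA. The groups did not overlap, and the treated group was the more spread. PSMC6 fell by 0.24 (SE 0.08, adjusted p = 0.046), and passed in 1 of 10 fits with a library left out (adjusted p up to 0.097). PSMD1, which encodes Rpn2, the large scaffold of the base, measured 199.9, 222, 225, 188 and 205 RPM in controls and 161, 186, 189, 177 and 174 after SRp55 siRNA. Control replicate 4 lay just under the highest treated library, and each treated library was below the control of its number. PSMD1 fell by 0.21 (SE 0.07, adjusted p = 0.049), and passed in 1 of 10 such fits (adjusted p up to 0.12). Median-of-ratios scaling of the summed reads ended the calls of PSMA4 (adjusted p = 0.05 after rounding, just above the threshold), PSMC6 (0.064) and PSMD1 (0.068) and left 3 members lower, where 9.16% of all genes were.

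**Figure D2:**
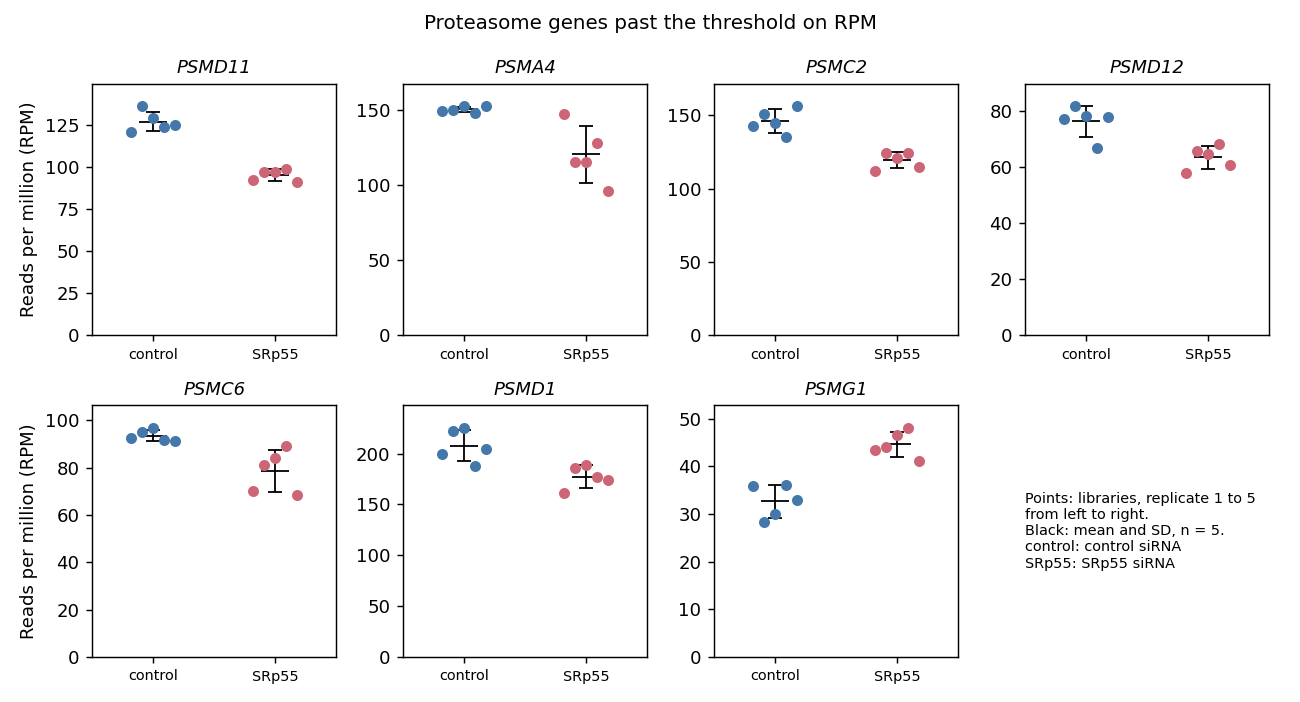
RPM (axes from 0) in each library for the 7 proteasome genes that passed the threshold on RPM, with the mean and SD of the 5 libraries per group. PSMD11, PSMA4, PSMC2 and PSMC6 do not overlap in the lower direction nor PSMG1 in the higher, whereas PSMD12 and PSMD1 overlap through control replicate 4.

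The lid and base also held genes that did not fall. PSMC3, the ATPase Rpt5, measured 65.6, 68.8, 61.7, 87.3 and 74.4 RPM in controls and 138, 79.7, 83.5, 83.5 and 101 after SRp55 siRNA. SRp55 siRNA replicate 1 was the highest and control replicate 4 was inside the treated range. Its log2 value of 0.43 (SE 0.15, adjusted p = 0.07) passed without control replicate 4 (0.51, adjusted p = 0.039). Its RPKM in the same order was 62.9, 50.5, 48.5, 99.1 and 59.1, and then 135, 75.7, 80.1, 84.2 and 72.7 (log2 0.38, adjusted p = 0.22). PSMD14, which encodes the deubiquitinase Rpn11, stood at 93.2 ± 7.89 and 99.8 ± 4.89 RPM. PSMD2, the most abundant 19S member per length, stood at 156 ± 48.5 and 170 ± 38.3 RPKM, with EIF2B5 sharing 10346 bases of its strand.

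The 13 core genes summed to 1808, 1469, 1381, 2080.1 and 1415 RPM in controls and 1975, 1932, 1801, 2007 and 1592 after SRp55 siRNA. The 17 genes of the 19S particle summed to 2019, 2052, 1998, 2081 and 2023 RPM in controls and 2149, 1914, 1874, 1982 and 1932 after SRp55 siRNA. The SD between controls was 303 of a mean of 1631 RPM for the core and 32.6 of 2035 RPM for the 19S genes. On RPKM the spreads were closer, at 445 of 1443 and 175 of 1079 RPKM. The ratio of the RPM sums, 19S over 20S, was 1.12, 1.40, 1.45, 1.00 and 1.43 in controls (mean 1.28 ± 0.205) and 1.09, 0.991, 1.04, 0.987 and 1.21 after SRp55 siRNA (mean 1.06 ± 0.0933). Control replicates 1 and 4 lay inside the treated range, so the groups overlapped, and on RPM all 5 treated libraries were below the control of the same number. On RPKM, which corrects for length, the ratio was 0.658, 0.816, 0.876, 0.652 and 0.868 in controls and 0.708, 0.606, 0.688, 0.606 and 0.752 after SRp55 siRNA (mean 0.774 ± 0.111 and 0.672 ± 0.0644). There the groups overlapped too, and SRp55 siRNA replicate 1 was above the control of its number while the other 4 were below theirs. The sums and the ratio leave out PSMB3, SEM1 and ADRM1. The ratio describes chosen genes and was not tested.

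**Figure D3:**
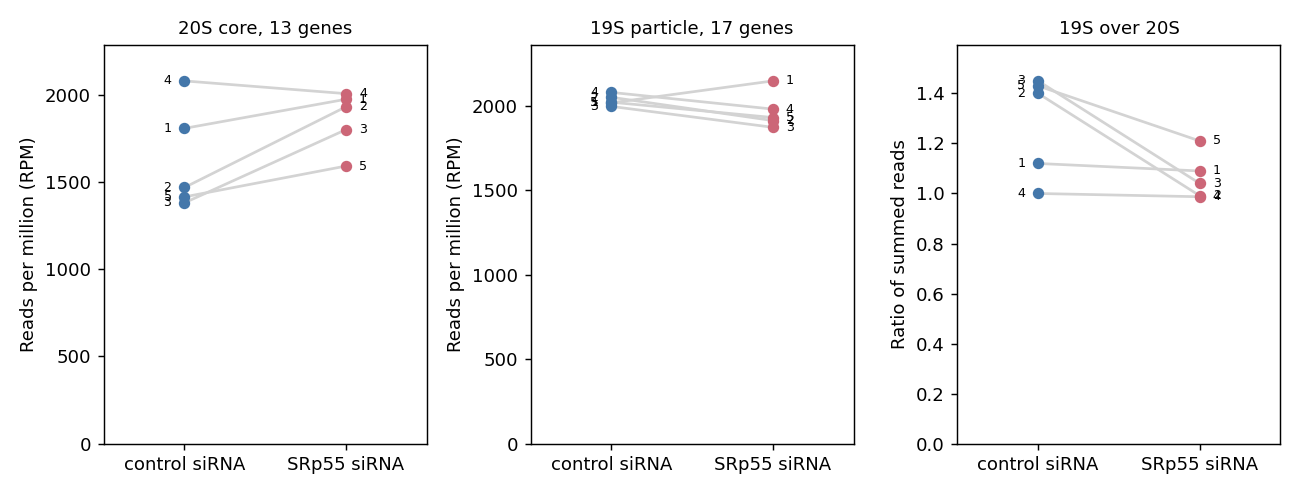
RPM of the 13 genes of the 20S core (left) and the 17 of the 19S particle (middle), and their ratio (right), by library. A grey line joins libraries of equal replicate number, and axes run from 0. PSMB3, SEM1 and ADRM1 are not in the sums. The ratio spans 1.00 to 1.45 in controls and 0.987 to 1.21 after SRp55 siRNA, with control replicates 1 and 4 among the treated values.

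The assembly chaperones held the one gene that rose. PSMG1 (chr21:40546695-40555777 on GRCh37, minus strand) encodes PAC1, which pairs with PSMG2 to nucleate the alpha ring. It measured 35.9, 28.3, 30, 36.1 and 33.0 RPM in controls and 43.4, 44, 46.5, 48.0 and 41.1 after SRp55 siRNA. Every treated library exceeded every control. PSMG1 rose by 0.46 (SE 0.09, adjusted p = 0.0041), or 37.9%, and passed in 10 of 10 fits with a library left out. Its RPKM values were 29, 17.2, 22.5, 30 and 24.5 in controls and 42.7, 33.8, 39.4, 42.7 and 30.7 after SRp55 siRNA. These did not overlap either, and PSMG1 was the only member of which that held in RPKM, in the direction found for 5.61% of all genes. The RPKM difference of 0.51 (SE 0.16) narrowly missed the threshold (adjusted p = 0.053). It passed without control replicate 4 (adjusted p = 0.033), without SRp55 siRNA replicate 5 (0.042) and with the replicate number as a block (0.021, where 9.39% of all genes were called higher).

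No other chaperone passed. The partner PSMG2 stood at 47.7 ± 4.48 and 51.6 ± 8.69 RPM, and PSMG3 at 15.9 ± 4.6 and 19.3 ± 4.08. PSMD5, which holds the base before it joins the lid, stood at 66.2 ± 8.53 and 66.3 ± 7.11. PSMD9, another base chaperone, stood at 23.8 ± 3.17 and 19.9 ± 3.77 (log2 -0.25, adjusted p = 0.21). PSMD9 (adjusted p = 0.03) and the lid gene PSMD3 (0.034, from 0.14) were called lower, and PSMB6 (0.047) and PSME3 (0.036) higher, when RPM was fitted with the replicate block, under which 15.8% of all genes were called higher and 20.5% lower.

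Among the other regulators PSME3 was the nearest to the threshold. It encodes the nuclear activator PA28-gamma and measured 159, 164, 163, 161 and 163 RPM in controls and 169, 177, 195, 178 and 178 after SRp55 siRNA. The groups did not overlap, and the controls were very tight. The log2 value of 0.16 (SE 0.06, 95% interval 0.03 to 0.28) did not pass (adjusted p = 0.11). Its RPKM was higher in SRp55 siRNA replicate 3, at 144, than in the other 4 treated libraries, at 59.4 to 86.5, and in that library 63.2% of it came from one retained-intron transcript of 552 bases. PSME3 shares 8966 bases with BECN1 on the other strand. PSME4, the nuclear cap PA200, stood at 128 ± 14 and 122 ± 12.1 RPM, and PSMF1, the inhibitor PI31, at 181 ± 12.6 and 175 ± 6.90, and neither passed.

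The 3 catalytic subunits of the immunoproteasome were present at low level in both groups, and none of the 4 tested immunoproteasome genes passed. The catalytic PSMB8 measured 4.15, 3.31, 3.30, 4.40 and 3.47 RPKM in controls and 9.83, 3.22, 3.03, 4.15 and 3.71 RPKM after SRp55 siRNA. SRp55 siRNA replicate 1 was high, and the other 4 treated libraries lay within or just below the control range. The log2 value of 0.09 (adjusted p = 0.69) became -0.14 without that library. PSMB9 measured 0.557, 0.660, 0.390, 0.231 and 0.0432 RPKM in controls and 0.677, 0.685, 0.0280, 0.683 and 0.419 RPKM after SRp55 siRNA. It was below the level tested, and TAP1 shares 8770 bases with it on the other strand.

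PSMB10 measured 3.67, 3.21, 1.58, 6.53 and 2.49 RPKM in controls and 5.03, 1.6, 1.27, 3.73 and 2.36 RPKM after SRp55 siRNA. The groups overlapped widely, and the log2 value of -0.40 had an SE of 0.37 (adjusted p = 0.69). On RPM it was -0.23 (95% interval -0.76 to 0.29), the widest interval among the members. The cap subunits PSME1 and PSME2 were much more abundant. PSME1 measured 68.5, 51.9, 53.9, 78.7 and 55.6 RPKM in controls and 100.2, 76.1, 66.5, 74.0 and 59.8 RPKM after SRp55 siRNA. PSME2 measured 36.7, 31.0, 25.8, 27.2 and 22.4 RPKM in controls and 41.2, 34.5, 26.4, 34.1 and 19.8 RPKM after SRp55 siRNA. Both overlapped between groups, with log2 values of 0.17 (adjusted p = 0.35) and -0.01 (adjusted p = 0.81), and PSME2 turned to 0.16 on RPM (adjusted p = 0.43).

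The constitutive counterparts were far more abundant. PSMB5 measured 182, 141, 137, 253 and 140.5 RPKM in controls and 273, 253, 166, 236 and 143 RPKM after SRp55 siRNA. PSMB6 measured 89.2, 51.4, 54.4, 123 and 55.2 RPKM in controls and 109, 94.8, 96.2, 114 and 78.1 RPKM after SRp55 siRNA. PSMB7 measured 115, 77.1, 71.6, 155 and 68.1 RPKM in controls and 123, 128, 115, 139 and 86.6 RPKM after SRp55 siRNA. In all 3, control replicates 1 and 4 lay within or above the treated range and the other 3 controls were below every treated library. Log2 values were 0.21, 0.36 and 0.23, with adjusted p of 0.44, 0.28 and 0.43. PSMB8 made up 2.20% ± 0.280 of the PSMB8 and PSMB5 RPKM in controls and 2.16% ± 0.870 after SRp55 siRNA. PSMB9 made up 0.573% ± 0.474 and 0.499% ± 0.271 of the PSMB9 and PSMB6 RPKM, and PSMB10 3.37% ± 0.776 and 2.30% ± 1.17 of the PSMB10 and PSMB7 RPKM. All 3 shares overlapped between groups.

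**Figure D4:**
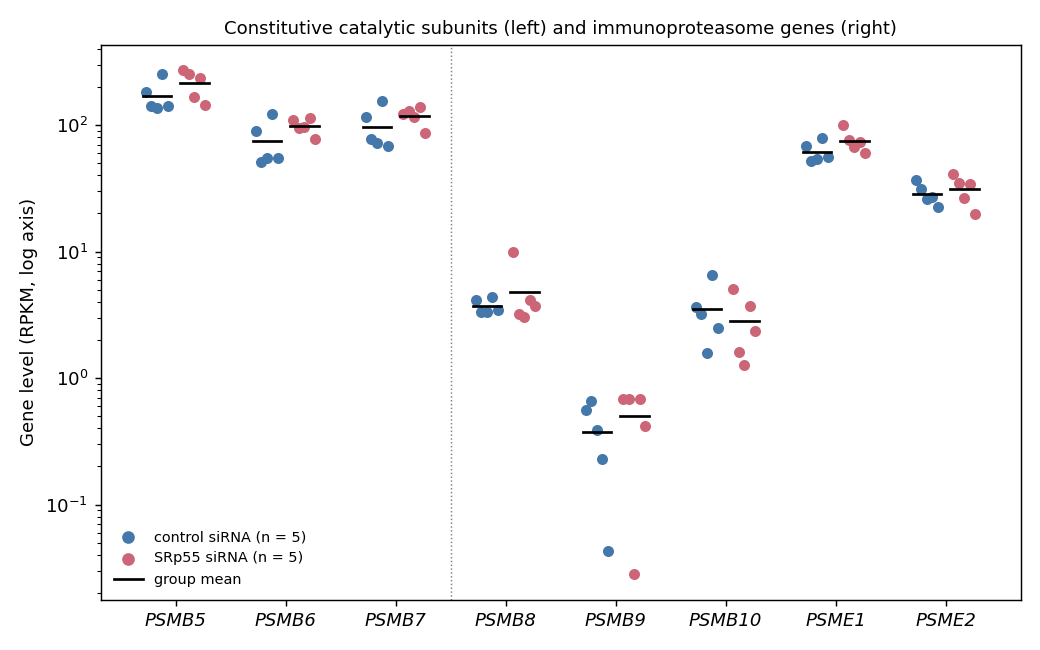
Gene level in RPKM (log axis) in each library, with group means, for the 3 constitutive catalytic subunits and the 5 immunoproteasome genes. PSMB8 and PSMB10 lie between 1.27 and 9.83 RPKM and PSMB9 at or below 0.685 RPKM in both groups, while PSMB5, PSMB6 and PSMB7 lie between 51.4 and 273 RPKM.

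Transcript usage, the share of a gene's RPKM taken by each transcript, was compared because SRp55 is a splicing factor. A transcript entered at a mean of 0.5 RPKM and 5% of its gene, which left 147 of 426 listed transcripts and 39 members. None of the 39 was called in limma's diffSplice F test. A call needed an adjusted p below 0.05 and a transcript that moved by 10 points or more, and 28 of 9919 genes (0.282%) met it. None of the 39 members had an unadjusted p under 0.05, where 797 of all 9919 genes did. The smallest adjusted p among members was 0.66. A mean shift of 10 points in some transcript occurred in 9 of 39 members (23.1%), against 36.3% of all genes. Retained-intron transcripts made up 9.43% ± 0.497 of member RPKM in controls and 9.71% ± 2.32 after SRp55 siRNA, and transcripts marked for nonsense-mediated decay 5.11% ± 0.597 and 5.45% ± 1.06. Over all protein-coding genes these shares were 7.97% and 8.56%, and 5.41% and 5.69%. In members, the higher treated mean of retained-intron transcripts rested on SRp55 siRNA replicate 3, at 13.7%. SRp55 siRNA replicates 1, 4 and 5, at 8.65%, 8.16% and 8.23%, lay below every control (lowest 8.92%). Replicate 2, at 9.84%, lay within the control range.

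Of the 3 members of smallest p, PSMD8 and PSMA1 had shifts that rested on few libraries. In PSMF1 the transcript ENST00000246015.4 took 7.04%, 14.4%, 13.5%, 4.10% and 12.2% of RPKM in controls and 1.63%, 4.79%, 5.00%, 4.06% and 2.74% after SRp55 siRNA, a shift of -6.61 points with overlap through control replicate 4. With a library left out it ran from -8.14 to -5.56 points. In PSMD8, a lid gene, ENST00000215071.4 took 37.8% and 46.3% in control replicates 3 and 5 and 2.03% to 4.79% in the SRp55 siRNA libraries. It took 2.45%, 2.77% and 2.15% in control replicates 1, 2 and 4, inside the treated range, so that the mean shift of -15.1 points came from 2 libraries.

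In PSMA1 the transcript ENST00000524606.1 (646 bases, with no coding sequence defined) took 52.6% and 56.0% in the same control replicates 3 and 5. It took 84.3% to 90.7% in the other controls and 80.9% to 89.1% after SRp55 siRNA, a mean shift of 10.9 points. Leaving out control replicate 5 moved the PSMD8 shift to -8.08 points, and leaving out control replicate 3 moved that of PSMA1 to 5.55 points.

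**Figure D5:**
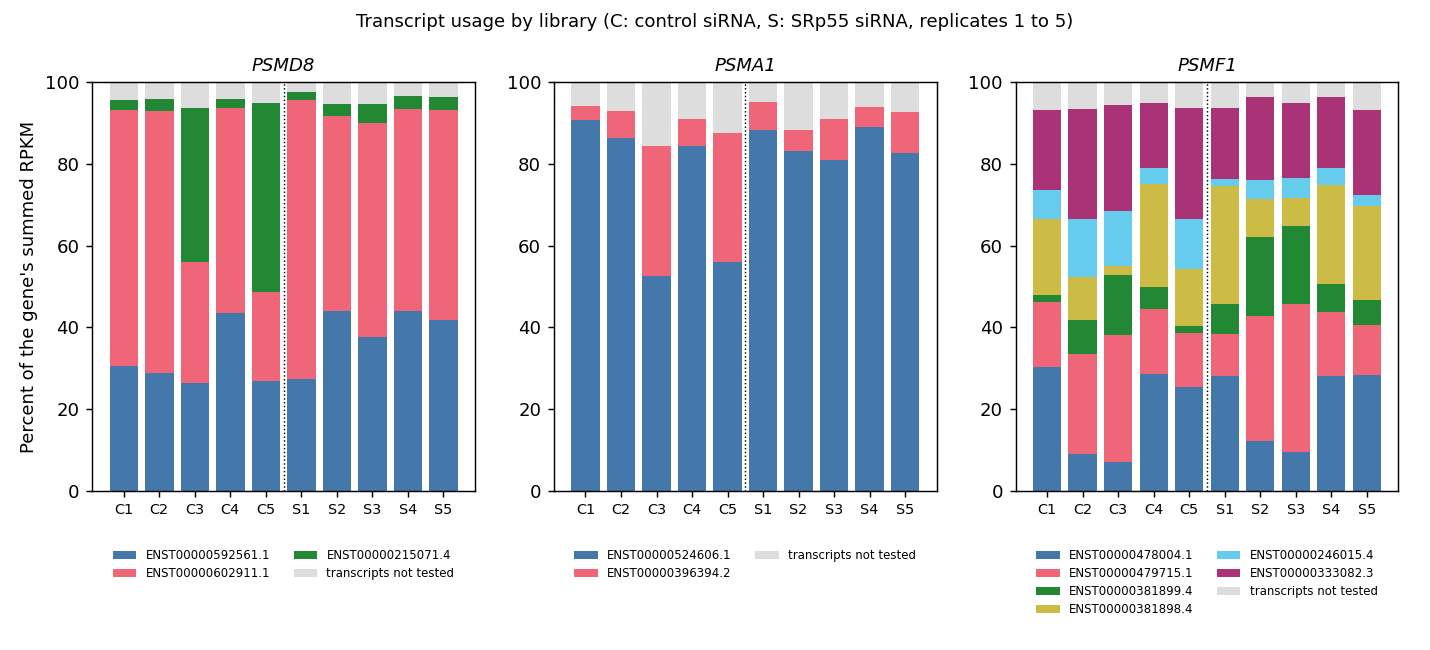
Percent of each gene's summed RPKM taken by its tested transcripts (shortest at the bottom) in every library for PSMD8, PSMA1 and PSMF1, with untested transcripts in grey. In control replicates 3 and 5 ENST00000215071.4 of PSMD8 reaches 37.8% and 46.3% and ENST00000524606.1 of PSMA1 drops to 52.6% and 56.0%, unlike the other 8 libraries.

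Of the genes that work with the proteasome, none of the 14 tested proteasome-associated genes passed on RPKM or on RPM (median 0.03 and 0.04, unadjusted p under 0.05 for 1 and 2), nor did any of the 12 shuttle factors and ubiquitin genes (median -0.00 and 0.02, and 0 and 0). Over all genes 21.9% had such an unadjusted p on RPKM and 31.9% on RPM. The chaperone POMP, which matures the core, stood at 51.4 ± 3.07 and 64.5 ± 24.5 RPKM. The ubiquitin receptor ADRM1 stood at 63.4 ± 10.3 and 80.3 ± 32.4 RPKM, and the lid component SEM1 at 196 ± 69.2 and 198 ± 39.1 RPKM. The proteasome-bound deubiquitinases USP14 and UCHL5 stood at 39.2 ± 2.46 and 37.0 ± 3.60 RPKM, and at 18.9 ± 5.61 and 22.2 ± 7.92 RPKM. SRp55 siRNA replicate 1 set the treated spread of POMP (107 RPKM) and ADRM1 (138 RPKM), as it did in PSMB8 and PSMC3.

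Of 12 genes that control proteasome transcription, 1 fell on RPKM (against 1.25% of all genes) and 2 on RPM (against 9.87% of all genes), and none was called higher. On this list 5 genes had an unadjusted p under 0.05 on RPKM and 3 on RPM, against 21.9% and 31.9% of all genes. Those on RPKM were FOXO4, DDI2, NGLY1 and SYVN1 below the median gene and the gene NRF1 above it. The gene NRF1, which is not NFE2L1, had log2 values of 0.50 on RPKM (adjusted p = 0.11) and 0.19 on RPM (adjusted p = 0.22). FOXO4, a forkhead factor tied to expression of PSMD11, measured 8.47, 7.12, 7.48, 9.02 and 6.56 RPM in controls and 2.73, 3.27, 4.13, 4.92 and 2.52 after SRp55 siRNA. It fell by 1.05 on RPM (adjusted p = 0.0011) and by 1.31 on RPKM (adjusted p = 0.016), from 3.39 ± 1.36 to 1.13 ± 0.283 RPKM, with no overlap. DDI2, the protease that activates NRF1, measured 77.2, 95.7, 94.0, 76.1 and 94.7 RPM in controls and 51.1, 71.8, 65.0, 61.9 and 55.4 after SRp55 siRNA. It fell by 0.51 on RPM (adjusted p = 0.0059), and its RPKM difference of -0.46 did not pass (adjusted p = 0.11). NFE2L1 itself stood at 346 ± 12.7 and 324 ± 9.46 RPM (log2 -0.08, adjusted p = 0.27), and at 108 ± 21.3 and 114 ± 20.2 RPKM. FOXO4 and DDI2, but not NFE2L1, passed on RPM in 10 of 10 fits with a library left out.

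Among 17 tested genes of interferon signalling and class I antigen processing, none passed on RPKM. An unadjusted p under 0.05 was found for 4 of them on RPKM (against 21.9% of all genes), TAP1 and TAPBP below the median gene and CALR and PDIA3 above it. On RPM 3 fell (against 9.87% of all genes called lower) and none rose. TAP1, a subunit of the transporter that carries proteasome-made peptides, went from 6.84 ± 1.30 to 4.34 ± 0.453 RPM (log2 -0.57, adjusted p = 0.0083), with no overlap between groups. TAPBP, the chaperone tapasin, went from 45.4 ± 6.34 to 33.4 ± 5.64 (log2 -0.43, adjusted p = 0.025). HLA-E went from 219 ± 22.7 to 171 ± 16.9 (log2 -0.34, adjusted p = 0.017). TAPBP passed in 5 of 10 fits with a library left out, and TAP1 and HLA-E in 10. The list median on RPM was -0.04, and 8 of the 17 stood above the median gene. Without overlap on RPKM, 2 of the 17 were higher (against 5.61% of all genes) and 1, TAP1, was lower (against 2.32%). The 2, named after their values were seen, were the peptide-loading chaperones CALR and PDIA3. They stood at 549 ± 46.3 and 676 ± 35.5 RPKM (log2 0.19, adjusted p = 0.14) and at 477 ± 40.7 and 562 ± 19.1 RPKM (log2 0.13, adjusted p = 0.22). On RPM both overlapped between groups (adjusted p = 0.27 and 0.53). B2M, the light chain of class I molecules, and the factor IRF1 had log2 values of 0.38 and 0.39 on RPM and did not pass (adjusted p = 0.11 and 0.086). On RPKM B2M stood at 0.34 (adjusted p = 0.27) and IRF1 at -0.34 (adjusted p = 0.78), so the sign of IRF1 depended on the quantity. Neither belonged to the genes set in advance to be named.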

How the data were processed

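TopHat and the build GRCh37 (hg19) are named in the submitters' processing notes. Not given in the sources used here are the version of TopHat, the program that counted, its annotation and whether it used strand. The authors deposited, for each of 10 libraries, an estimated read number and an RPKM value for each of 155130 transcripts, held as other text fields of the annotation lines. Both are normalized or estimated values in a text field, so no count model was run and the test for RPKM values was used. Current symbols came from GENCODE 44 by Ensembl identifier (95.0% of genes).

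Gene values were sums over transcripts. limma 3.58.1 (R 4.3.3, trend and robust) was fitted on log2(RPKM + 0.5) over the 13630 genes averaging 0.5 RPKM or more, by group alone, with two-sided p-values adjusted by Benjamini-Hochberg over all genes tested. As an alternative, the same fit was made on RPM, the summed reads per 1000000 assigned reads (+ 0.5). Adjusted p-values in the text come from these fits. Calls needed an adjusted p below 0.05. Scripts were tested on simulated data. Equal replicate numbers were treated as pairs in an alternative with a block, since libraries of the same number deviated together (r = 0.13 to 0.41, against at most 0.12 for different numbers). The alternatives were other scalings, pseudocounts of 0.1 and 1, other filters, the block, and each library left out. Those on RPM with a library left out or with the block were chosen after seeing the data.

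The members and lists were chosen with earlier results of these data known. Named with every library are the target, the immunoproteasome genes and their counterparts, called members, the 3 highest and 3 lowest members on RPKM, and the 3 of smallest p in usage. From the other lists, called genes and 6 set genes are named. CALR, PDIA3, B2M, IRF1, NGLY1, SYVN1 and the gene NRF1 are named outside that rule. PSMA3, PSMA7, PSMB4, PSMD3 and PSMD9 were named after their values were seen, and other members are given by group means. Sequences are RefSeq promoters of GRCh38.p14, and gene coordinates are those of the deposited GRCh37 models. Figures were drawn with matplotlib 3.10.9.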

Additional observations from a re-analysis of the deposited data

Results flagged for a closer look

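Within groups of 5 libraries, values were singled out where the gap between the highest or lowest library and the next exceeded Dixon's 95% limit, which chance gives in about 1 in 20 groups. Over 176 groups (44 members, 2 quantities, 2 treatments) there were 18 such values, 10 of them in SRp55 siRNA replicate 1 and in 7 genes. In that library PSMB8 stood at 9.83 RPKM and 12.1 RPM (the others at 3.03 to 4.15 and 4.18 to 5.56), and PSMC3 at 135 RPKM (72.7 to 84.2). PSMD6 stood at 86.5 RPKM and 124 RPM (38.4 to 50.6 and 69.8 to 74.7), and PSMD8 at 168 RPKM and 205 RPM (87.1 to 104 and 112 to 132). PSMD4 reached 146 RPM (86.1 to 93.6), PSME2 46.1 (29.5 to 33.2) and PSMG2 67.0 (46.3 to 49.5). Outside the members, POMP reached 107 RPKM and 148 RPM there (44.2 to 59.7 and 76.6 to 89.5), and ADRM1 138 RPKM and 167 RPM (62.3 to 68.3 and 79.3 to 93.5). The same library had the largest assigned share of its RPKM total, 96.5%, and the part of that share in these values was not tested.

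Control replicate 4 stood apart in PSMC3 (99.1 RPKM, the others 48.5 to 62.9), PSMD4 (99.3 RPKM, 65.7 to 71.8), PSMG2 (53.3 RPKM, 23.9 to 27.6) and UCHL5 (28.6 RPKM, 14.7 to 18.4), and was low in PSMD12 (66.8 RPM, 77.3 to 81.6). SRp55 siRNA replicate 5 was low in PSMD1 (54.0 RPKM, 60.1 to 60.9), PSMD14 (38.3 RPKM, 45.9 to 46.8) and PSMA2 (113 RPM, 151 to 163). SRp55 siRNA replicate 3 was high in PSMD12 (34.3 RPKM, 23.5 to 25.3) and UCHL5 (36.1 RPKM, 16.4 to 20.5). Control replicate 1 was high in TAP1 (3.00 RPKM, 1.79 to 2.09).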

How the results depend on the processing

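On gene RPKM, proteasome genes called higher numbered 0 and became 1 with median-of-ratios scaling, with the replicate block and on RPM in either scaling, and 0 to 3 with a library left out. Those called lower numbered 0 and became 1 with median-of-ratios scaling, 6 on RPM and 3 on RPM with median-of-ratios scaling, and stayed at 0 with any library left out. Over all genes, 513 higher became 995 on RPM, 1094 on rescaled RPM, 1280 with the replicate block and 177 to 930 with a library left out. The 171 lower became 507 with median-of-ratios scaling, 1345 on RPM, 1248 on rescaled RPM, 504 with the replicate block and 80 to 153 with a library left out. On RPM, members called higher went from 1 to 3 with the replicate block and 1 to 7 with a library left out, and members called lower from 6 to 3 on rescaled RPM and 2 to 5 with a library left out. With the block 8 members were lower on RPM, and over all genes 995 and 1345 became 2159 and 2794. For usage, 28 genes in all became 48 on estimated reads, 17 at a mean of at least 2 RPKM and 18 to 46 with a library left out, and 0 members were called in each setting tried. Pseudocounts of 0.1 and 1 and the filter of 2 RPKM left the member counts on RPKM at 0. Why these counts moved was not tested beyond the construction of each setting.

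Values near 0 changed sign, and none of these passed a test. IRF1, further from 0, went from -0.34 on RPKM to 0.39 on RPM and passed on neither. Without SRp55 siRNA replicate 1, PSMB8 went to -0.14 on RPKM and -0.12 on RPM, and POMP to -0.01, while over all libraries left out they reached 0.21, 0.23 and 0.22. PSME2 went from -0.01 on RPKM to 0.16 on RPM, 0.17 on rescaled RPM, 0.07 with no filter and 0.04 to 0.10 without one of 4 libraries. NFE2L1 went from -0.02 to 0.05 with no filter and 0.00 to 0.04 without one of 4 libraries (lowest -0.10). SEM1 went from -0.05 on RPKM to 0.03 on RPM in either scaling, 0.02 with no filter and 0.01 to 0.08 without one of 3 libraries, and on RPM to -0.05 to -0.03 without one of 4. UCHL5 went to -0.08 on RPKM without SRp55 siRNA replicate 3 (highest 0.21), and to -0.05 to -0.02 on RPM without that library or control replicate 1.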
